A study of Mus musculus with 2 samples.

Results

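The 10 genes described here encode transcription factors that regulate the formation and maturation of the epidermis: Trp63, Zfp750, Klf4, Grhl1, Grhl3, Ovol1, Hopx, Gata3, Prdm1 and Cebpa. They were chosen by name for this role, with earlier results of these data known, and were followed through keratinocyte stages, hair follicle, sebaceous gland and immune cells and between genotypes; they are 10 of the 19046 non-mitochondrial genes in the files. All 10 were measured in both libraries, and all 10 passed the filter of 50 unique molecular identifiers (UMIs, 1 per captured molecule) in keratinocytes.

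Dorsal skin of 1 wildtype C57BL/6J mouse and 1 Eppk1-/- mouse, whose Eppk1 knockout had been backcrossed into C57BL/6J, was dissociated, fixed and profiled with pairs of gene-specific probes on the 10x Genomics platform. Eppk1 encodes epiplakin, a plakin that binds keratin filaments. The age and sex of these mice are not given in the sources used here. With 1 library per genotype no test between genotypes is possible: all intervals below are exact 95% intervals for counting error, and the spread between mice is not known.

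In the epidermis, basal keratinocytes attached to the basement membrane divide, then leave it, switch to the keratins Krt1 and Krt10 in the spinous layers, and make filaggrin (Flg) and loricrin (Lor) in the granular layer before they cornify. p63, the product of Trp63, establishes and maintains the basal program and acts upstream of several other factors on the list, among them Zfp750, which in turn works with Klf4 in terminal differentiation. Grainyhead-like factors (Grhl1, Grhl3) control junction, repair and barrier genes, and Ovol1, Prdm1 (Blimp-1), Gata3, Cebpa and the homeodomain-only protein Hopx each take part in cell cycle exit, lipid or barrier formation, or follicle and gland biology.

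In the mouse annotation (GENCODE M21 on GRCm38, the build the files use as mm10) all 10 are protein-coding genes. Trp63 (ENSMUSG00000022510) lies at chr16:25683763-25892102 on the plus strand, Grhl1 (ENSMUSG00000020656) at chr12:24572283-24617391 on the plus strand and Cebpa (ENSMUSG00000034957) at chr7:35119293-35121928 on the plus strand. On the minus strand lie Zfp750 (ENSMUSG00000039238) at chr11:121510978-121519333, Klf4 (ENSMUSG00000003032) at chr4:55527143-55532466, Grhl3 (ENSMUSG00000037188) at chr4:135541888-135573630 and Ovol1 (ENSMUSG00000024922) at chr19:5549136-5560646. Hopx (ENSMUSG00000059325) at chr5:77086988-77115121, Gata3 (ENSMUSG00000015619) at chr2:9857078-9890034 and Prdm1 (ENSMUSG00000038151) at chr10:44437177-44528501 are also on the minus strand.

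The promoters of 5 factors are shown, and these factors were picked by their levels in the results below. Klf4 and Prdm1 stayed high in the most mature keratinocytes, and Grhl3 and Cebpa were highest in Krt1-rich cells. Hopx was the 1 factor past the size rule between genotypes. Each sequence is the 250 bases before an annotated start, from RefSeq on GRCm38.p6, written 5′ to 3′ on the strand of the gene. The windows are chr4:55532476-55532725 (minus strand) for Klf4, chr10:44458749-44458998 (minus) for Prdm1, chr4:135573633-135573882 (minus) for Grhl3, chr7:35119043-35119292 (plus) for Cebpa and chr5:77115124-77115373 (minus) for the first of the listed Hopx starts. Capitals mark a KLF-type box (CCACCC) or an AP-1-like sequence (TGANTCA, with any base in the middle) on either strand.
Klf4: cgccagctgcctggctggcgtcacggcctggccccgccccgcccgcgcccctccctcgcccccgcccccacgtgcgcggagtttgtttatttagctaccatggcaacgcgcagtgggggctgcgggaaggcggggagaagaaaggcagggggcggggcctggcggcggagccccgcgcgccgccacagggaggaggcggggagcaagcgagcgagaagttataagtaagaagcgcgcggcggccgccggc
Prdm1: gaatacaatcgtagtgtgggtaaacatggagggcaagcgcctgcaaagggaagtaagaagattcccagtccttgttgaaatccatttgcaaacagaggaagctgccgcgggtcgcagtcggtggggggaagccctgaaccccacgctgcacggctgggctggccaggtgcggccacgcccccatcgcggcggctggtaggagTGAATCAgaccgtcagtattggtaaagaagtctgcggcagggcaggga
Grhl3: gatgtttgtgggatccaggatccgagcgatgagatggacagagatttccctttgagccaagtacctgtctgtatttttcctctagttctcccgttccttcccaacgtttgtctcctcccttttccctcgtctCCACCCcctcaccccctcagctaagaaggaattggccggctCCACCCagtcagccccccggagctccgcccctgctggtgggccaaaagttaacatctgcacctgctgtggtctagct
Cebpa: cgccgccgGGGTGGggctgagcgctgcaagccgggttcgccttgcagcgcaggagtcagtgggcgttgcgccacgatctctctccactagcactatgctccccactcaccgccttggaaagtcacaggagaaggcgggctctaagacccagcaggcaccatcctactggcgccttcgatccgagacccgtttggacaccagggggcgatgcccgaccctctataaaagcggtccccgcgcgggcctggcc
Hopx: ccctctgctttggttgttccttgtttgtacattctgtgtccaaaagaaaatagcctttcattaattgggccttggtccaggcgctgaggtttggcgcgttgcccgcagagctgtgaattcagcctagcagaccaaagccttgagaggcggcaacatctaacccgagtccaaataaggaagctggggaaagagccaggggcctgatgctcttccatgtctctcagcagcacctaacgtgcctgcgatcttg
The table of promoters held 7 of the 10 factors with 9 starts in all. The KLF-type box was found before 4 of these starts, those of Grhl3, Gata3, Cebpa and 1 of the Grhl1 starts, against 28.1% of all 32851 promoter windows, and the Grhl3 window held 2 of them. The AP-1-like sequence was found before 1 start, that of Prdm1, where it had A in the middle (TGAATCA), against 6.75% of all windows. A grainyhead core (AACNNGTT), a GATA core (AGATAA) and a C/EBP-type site (TTGCNNAA) were found before none of the 9 starts and in 3.64%, 9.99% and 9.56% of all windows. The Klf4 window was 74.0% G or C, against a median of 52.4% over all windows. These matches are descriptions of letters in short windows and say nothing of binding.

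After filtering, 8875 wildtype and 8617 Eppk1-/- cells remained, with median depths of 4941 and 4992 UMIs. Among the deposited cells 1211 droplet barcodes, compared without the probe barcode that follows them, occurred in both libraries. The authors' methods name a pooled wash workflow for the barcoding. Clusters with at least 3 markers of a type, and leading genes that did not go against it, are called keratinocyte-like, fibroblast-like and so on, written below without the ending. Clusters that failed the second condition stayed unnamed and are not in the values of these types. Among them, epithelial clusters 3 and 7 had 8 and 6 of 8 basal keratinocyte markers. Another, of 243 wildtype and 228 Eppk1-/- cells, had 8 of 8 macrophage and monocyte markers. Keratinocytes numbered 3205 in wildtype and 2590 in Eppk1-/- skin, with 24374864 and 17193796 UMIs. Eppk1 itself went from 3646 to 991 CPM in keratinocytes (CPM: UMIs of a gene per 1000000 UMIs), a log2 ratio of -1.88 (interval -1.90 to -1.86). Its remaining UMIs in the library labelled Eppk1-/- depended on stage: 62.7 CPM in the least mature keratinocytes against 1205 in wildtype, and 2253 CPM in the Flg+Lor stage against 3153. In a sub-cluster of the Flg+Lor stage rich in Lce genes the order was opposite to the labels, with 499.7 CPM in the library labelled Eppk1-/- and 103 CPM in wildtype. Which part of the gene the probes cover is not given in the sources used here.

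Keratinocytes were ordered by their own transcripts. Cells in which Flg and Lor made up at least 1% of UMIs formed the Flg+Lor stage (141 wildtype and 83 Eppk1-/- cells), and all other keratinocytes were divided into equal groups with a low, middle or high share of Krt1 and Krt10, with limits at 0.0354% and 0.8709% of UMIs. The low stage held 1048 wildtype and 809 Eppk1-/- cells, the middle stage 1066 and 791, and the high stage 950 and 907. A stage is a range of a continuous share, not a cell type: 407 cells lay within 20% of the lower limit, 205 of the upper limit and 12 of the Flg+Lor limit. The lower limit is below the Krt1 and Krt10 share of fibroblasts, 0.042% of UMIs in wildtype and 0.045% in Eppk1-/-. In 923 keratinocytes no UMI of either gene was found. The low and middle stages are therefore not clearly parted. Known genes not used to set the stages moved with them. Some of these genes, such as Krt5, Krt14, Itgb4 and Cdsn, were also markers used to name the keratinocyte clusters. All 12 of 12 basal genes tested, such as Krt5, Krt14 and Itgb4, were lower by at least 1 (log2) in the Flg+Lor stage than in the low stage in both libraries, and 23 of 24 differentiation genes tested, such as Cdsn, Klk7 and Alox12b, were higher. A stage change is called below where the log2 ratio of CPM was at least 1 in the same direction in both libraries.

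The stages differed in depth and in make-up, and this bears on every ratio between them. The median depth was 4656 UMIs in the low stage and 18721 in the Flg+Lor stage in wildtype, and 4445 and 18791 in Eppk1-/-. Keratins and cornified envelope genes took 2.89% of UMIs in the low stage and 27.3% in the Flg+Lor stage in wildtype (2.93% and 31.4% in Eppk1-/-). The median log2 ratio of all 7574 genes tested between these stages was -1.07 in wildtype and -1.42 in Eppk1-/-. Of all genes tested, 13.3% were called higher in the Flg+Lor stage and 50.1% lower, and with scaling by the trimmed mean of M values (TMM) 1703 genes were called higher and 2284 lower, in place of 1008 and 3791. Values of different genes are compared below only as changes of the same gene, since UMIs per gene also depend on its probes.

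Of the 10 factors, 4 were called higher in the Flg+Lor stage than in the low stage (Prdm1, Grhl3, Zfp750 and Klf4), 2 were called lower (Trp63 and Gata3), and 4 were called in neither direction (Grhl1, Ovol1, Hopx and Cebpa). The median log2 ratio of the 10 was 1.0 in wildtype and 0.49 in Eppk1-/-, beside the medians of all genes given above. With TMM scaling 7 were called higher, adding Grhl1, Hopx and Cebpa, and the same 2 lower. Over 16 alternative settings the ratios of Prdm1 and Grhl3 stayed above 1 in both libraries. The lowest ratio of Zfp750 was 0.38 in wildtype and 0.28 in Eppk1-/-, and that of Klf4 was 0.81 and 1.09, so the calls of these 2 depend on the setting. Between the high and the low stage, where the median of all 8833 genes tested was -0.14 and -0.09, 5 factors were called higher (Prdm1, Grhl3, Zfp750, Cebpa and Grhl1), against 10.8% of all genes tested, and 1 was called lower (Trp63), against 13.2%.

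**Figure D1:**
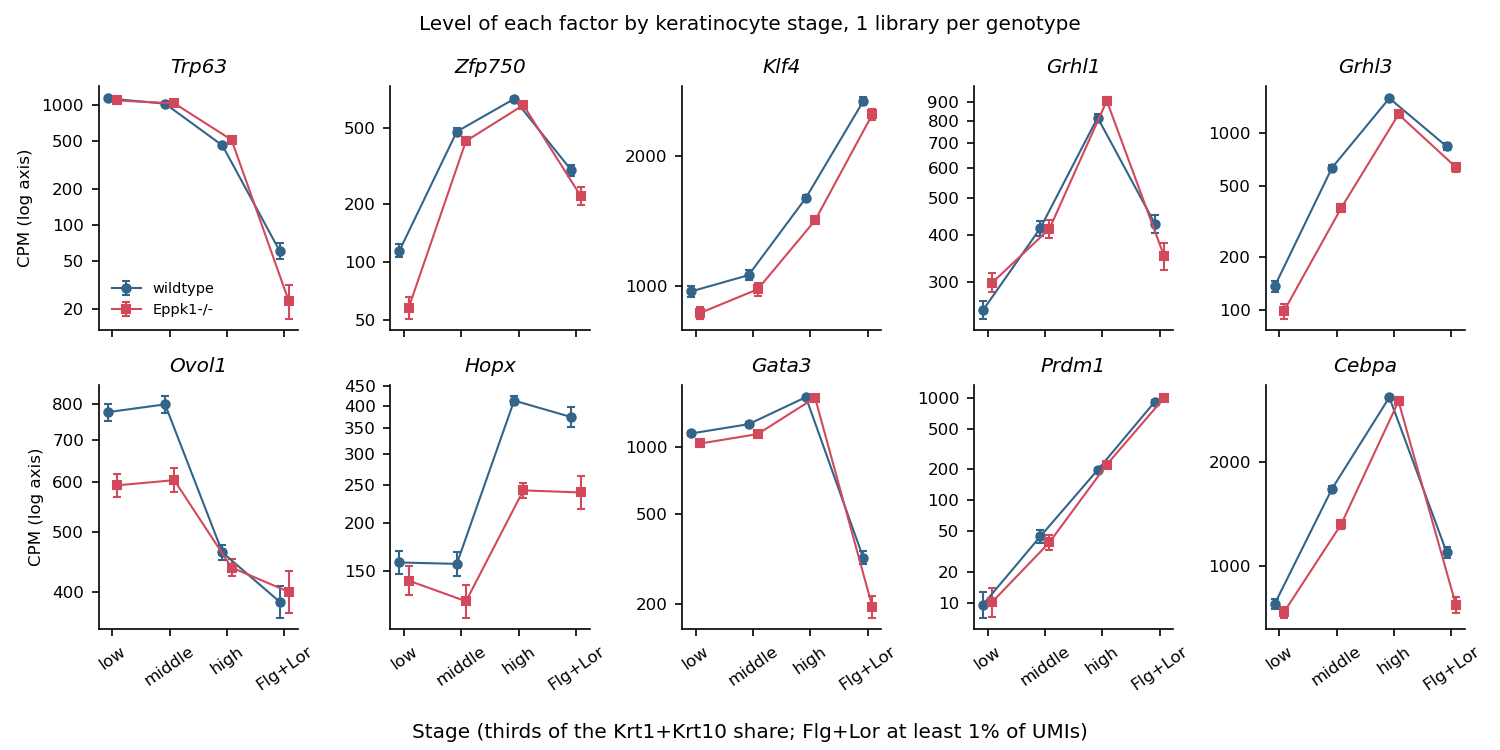
CPM (log axis, a separate scale for each gene) of the 10 factors in keratinocytes by stage, with exact 95% counting intervals; circles are the wildtype library and squares the Eppk1-/- library. Trp63 fell from 1131 to 60.7 CPM in wildtype while Prdm1 rose from 9.56 to 917 CPM, and Hopx was lower in Eppk1-/- at the high stage (242 against 413 CPM).

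Trp63, the gene of the basal regulator p63, was highest in immature keratinocytes and lost in the latest ones. In wildtype its level was 1131 CPM in the low stage, 1023 in the middle stage, 460 in the high stage and 60.7 in the Flg+Lor stage. In Eppk1-/- the same stages gave 1088, 1030, 511 and 23.2 CPM. The low and middle stages were close to each other in both libraries, but finer ranges, given below, already differed. Trp63 had 1109 CPM under 0.1% Krt1 and Krt10 and 946.6 CPM at 0.1 to 1% in wildtype, and 1090 and 923.2 CPM in Eppk1-/-. The larger drop came later, with log2 ratios of the Flg+Lor to the low stage of -4.22 (interval -4.44 to -4.00) in wildtype and -5.54 (-6.05 to -5.10) in Eppk1-/-. Both ratios remain below -1 when set against the median of all genes. In the Flg+Lor stage the ratio between genotypes was -1.38 (-1.93 to -0.88), from 177 UMIs in wildtype and 39 in Eppk1-/-. Basal keratins and hemidesmosome genes also differed there, at 2.97% of their epithelial level in wildtype and 1.40% in Eppk1-/-. Cells with 1 to 10% Flg and Lor, which had more Trp63 than later ones, were 69 of 141 in wildtype and 30 of 83 in Eppk1-/-. In that range Trp63 had 100.7 CPM in wildtype and 49.3 in Eppk1-/-. At 10% or more it had 16.6 CPM (23 UMIs) in wildtype and 5.9 CPM (6 UMIs) in Eppk1-/-. The part of cell make-up in this ratio was not tested.

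Zfp750, a zinc finger factor that p63 activates, rose from the low to the middle and the high stage. Its level in wildtype was 115 CPM in the low stage, 478 in the middle, 707 in the high and 299.9 in the Flg+Lor stage, and in Eppk1-/- 57.7, 427, 656 and 221 CPM. The middle stage was mixed, with 290 of 1066 wildtype and 143 of 791 Eppk1-/- cells from the Krt1-rich sub-cluster 1. In sub-cluster 1 Zfp750 had 1017 and 868 CPM and Trp63 742 and 725 CPM. In the basal sub-cluster 0 Zfp750 had 212 and 180 CPM and Trp63 970 and 956 CPM. The high stage stood above the low stage by 2.62 (log2) in wildtype and 3.5 in Eppk1-/-. In cells with 10% or more Flg and Lor, Zfp750 had 98.95 CPM in wildtype, below the low stage. In Eppk1-/- it had 114.4 CPM there, above the low stage. In the low stage itself the Eppk1-/- library had 222 UMIs of Zfp750 and the wildtype library 599, a log2 ratio of -0.99 (-1.22 to -0.76), whereas in the basal sub-cluster 2 the ratio was 0.47 (0.13 to 0.81). The difference in the low stage was therefore not seen in each group of immature cells.

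The grainyhead-like factors rose together into the high stage. Grhl3, which drives barrier formation, went from 137 CPM in the low stage to 634, 1560 and 835 CPM in the middle, high and Flg+Lor stages in wildtype, and from 98.8 to 376, 1265 and 639 CPM in Eppk1-/-. Grhl1, which controls desmosomal cadherin genes, had 252, 416, 816 and 427 CPM in wildtype and 298, 414, 904 and 350 CPM in Eppk1-/-. Grhl3 changed more than Grhl1 between the low and the high stage, by 3.51 against 1.69 (log2) in wildtype and by 3.68 against 1.60 in Eppk1-/-. For comparison, Grhl2, the remaining family member on the list of other factors, was called lower in the Flg+Lor stage, from 39.0 to 3.77 CPM in wildtype and from 35.6 to 4.16 CPM in Eppk1-/-.

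Cebpa, a C/EBP factor tied to cell cycle exit, peaked in the high stage and then fell back. Wildtype levels were 774 CPM in the low stage, 1672 in the middle, 3082 in the high and 1093 in the Flg+Lor stage, and Eppk1-/- levels were 732, 1319, 3001 and 770 CPM. The high stage exceeded the low stage by 1.99 (log2) in wildtype and 2.03 in Eppk1-/-. Gata3, a GATA factor needed for barrier lipids and for the follicle, had a flatter rise, with 1146, 1260, 1662 and 321 CPM in wildtype and 1034, 1139, 1653 and 194 CPM in Eppk1-/-. Its fall into the Flg+Lor stage was -1.83 in wildtype and -2.41 in Eppk1-/- relative to the low stage, but -0.77 and -1.0 when set against the median of all genes, so the call rests on the scaling.

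Ovol1, a zinc finger repressor linked to the exit from proliferation, was the one factor besides Trp63 with its highest levels in immature cells. It had 777, 799.6, 463 and 386 CPM from the low to the Flg+Lor stage in wildtype, and 593, 605, 438 and 400.4 CPM in Eppk1-/-. Its log2 ratio of the Flg+Lor to the low stage was -1.01 in wildtype and -0.57 in Eppk1-/-, and 0.06 and 0.85 relative to the median of all genes. No direction can therefore be given for Ovol1 that holds under each scaling.

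Klf4 and Prdm1 increased over the 4 stages in both libraries. Klf4, a Krüppel-like factor required for the skin barrier, had 970, 1058, 1601 and 2688 CPM in wildtype and 864, 981, 1419 and 2507 CPM in Eppk1-/-. Prdm1, a repressor that acts in the terminal steps of several lineages, had 9.56, 44.3, 197 and 917 CPM in wildtype and 10.1, 38.8, 223 and 997 CPM in Eppk1-/-. Prdm1 showed the largest stage change of the 10, with a log2 ratio of 6.57 (6.18 to 7.02) in wildtype and 6.60 (6.16 to 7.12) in Eppk1-/-, against 1.47 (1.42 to 1.52) and 1.54 (1.47 to 1.60) for Klf4. In cells thinned to 2000 UMIs, Klf4 was detected in 72.6% of low-stage and 97.8% of Flg+Lor cells of the wildtype library, and Prdm1 in 1.45% and 76.8%.

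Hopx, a small homeodomain protein that binds no DNA by itself, rose late. Its wildtype levels were 158, 157, 413 and 374 CPM from the low to the Flg+Lor stage, and its Eppk1-/- levels were 142, 126, 242 and 239 CPM. The low and middle stages did not differ beyond counting error in wildtype. The Flg+Lor stage exceeded the low stage by 1.24 (1.11 to 1.38) in wildtype and 0.75 (0.56 to 0.94) in Eppk1-/-, which missed the rule in Eppk1-/-. Relative to the median of all genes these values were 2.31 and 2.17, but with the Flg+Lor limit at 5% in place of 1% they were 0.63 and -0.62.

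Finer ranges of the same shares, chosen after the data had been seen, placed the factors in an order. Trp63 had its highest level in cells with under 0.1% Krt1 and Krt10, Ovol1 at 0.1 to 1%, and Zfp750, Gata3 and Cebpa at 1 to 2%, in both libraries. Grhl3 was highest at 2 to 4% in wildtype and 1 to 2% in Eppk1-/-, and Grhl1 at 4% or more in wildtype and 1 to 2% in Eppk1-/-. The intervals of the highest and the next range overlapped for Ovol1 in both libraries, for Grhl1, Grhl3 and Gata3 in Eppk1-/- and for Hopx in wildtype. Hopx was highest at 1 to 10% Flg and Lor, and Klf4 and Prdm1 at 10% or more, again in both libraries. The increase of these 2 was not even: from 2 to 4% to the range of 4% or more Krt1 and Krt10, Prdm1 went from 249.6 to 177.5 CPM in wildtype and from 261.8 to 207.3 CPM in Eppk1-/-, and Klf4 from 1741 to 1591 CPM in wildtype, without overlap of the intervals. In the last range, Trp63 stood at 1.5% of its highest level in wildtype, Gata3 at 3.92%, Cebpa at 5.91%, Zfp750 at 10.2%, Hopx at 13.3%, Grhl1 at 16.5%, Grhl3 at 17.7% and Ovol1 at 42.4%.

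**Figure D2:**
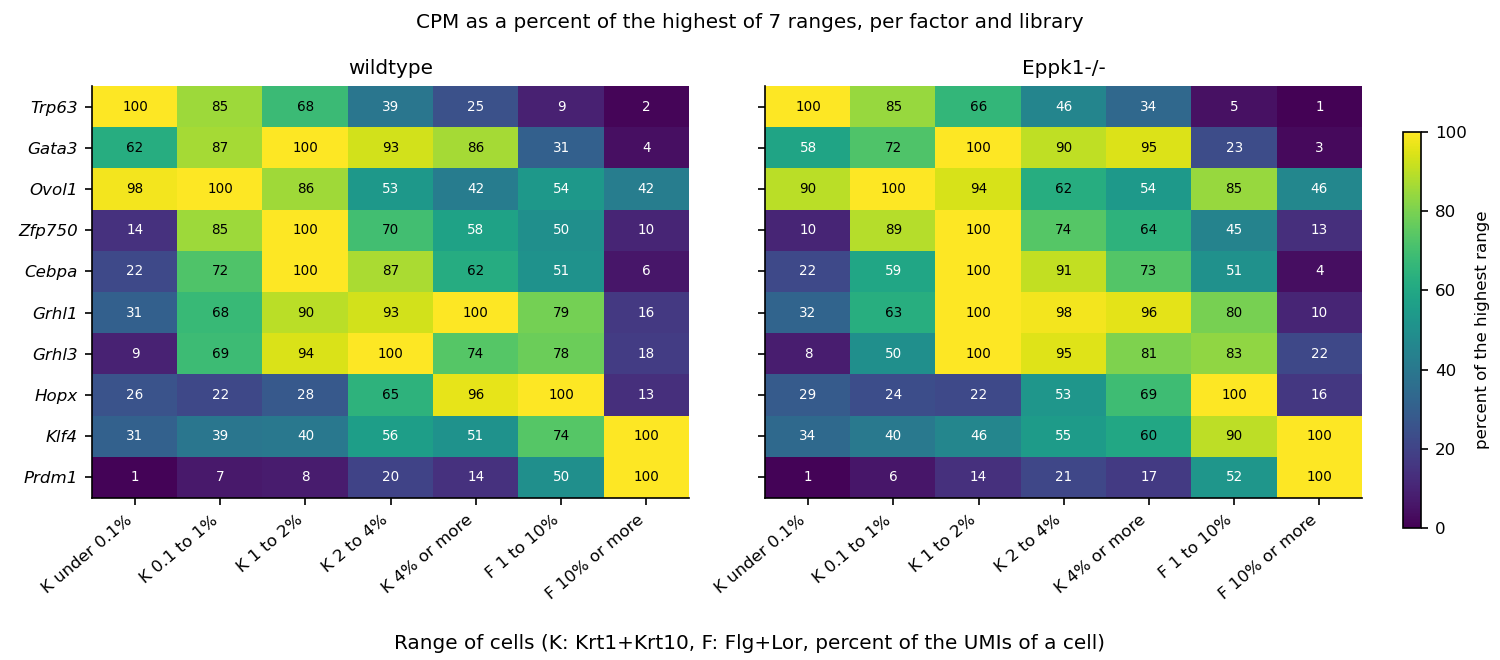
CPM of each factor as a percent of its highest value over 7 ranges of keratinocytes, from under 0.1% Krt1 and Krt10 (left) to 10% or more Flg and Lor (right), for the wildtype (left panel) and Eppk1-/- library (right panel). Highest values move from the left for Trp63 to the right for Prdm1, which was at 0.800% of its highest level in the first wildtype range.

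The Flg+Lor stage held a sub-cluster of 50 wildtype and 34 Eppk1-/- cells, called Lce-rich here because genes of late cornified envelope proteins led it, with Flg and Lor at 21.8% and 21.2% of UMIs. Klf4 had 3274 CPM in wildtype and 2725 in Eppk1-/-, and Prdm1 had 1004 and 930 CPM, with UMIs of both genes in all of these cells at full depth. Ovol1 had 177 and 180 CPM there, below its level in each stage. Trp63 had 24.5 and 8.09 CPM, Zfp750 10.0 and 16.2 CPM, Grhl1 18.9 and 22.6 CPM, Hopx 20.01 and 16.2 CPM, and Gata3 42.2 and 56.6 CPM. Grhl3 had 70.0 and 32.3 CPM and Cebpa 74.5 and 50.1 CPM. Each of these 7 factors stood below its level in every stage in both libraries. The cells were deep, with a median of 17886.5 UMIs in wildtype and 18066 in Eppk1-/-. Without this sub-cluster Hopx also passed the rule for the Flg+Lor stage, making 5 factors higher and 2 lower. Of all 7477 genes tested in that setting, 1079 were higher and 3103 lower.

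Other epidermal transcription factors gave the setting for these changes. Of a list of 55, 47 were tested between the Flg+Lor and the low stage: 7 were higher and 24 lower in both libraries, with median log2 ratios of -1.12 and -1.39. Over all genes tested 13.3% were higher and 50.1% lower, with medians of -1.07 and -1.42, so the list as a whole was close to all genes. Dlx3, a homeobox activator of late genes, had 158 CPM in the Flg+Lor stage and 0.574 CPM (3 UMIs) in the low stage in wildtype, a log2 ratio of 7.88 (6.54 to 10.38), and 8.76 (6.86 to 14.66) in Eppk1-/-. Its relative Dlx5 rose by 3.39 and 2.80. Bnc1, a basal zinc finger gene, had a ratio of -7.31 (-9.81 to -5.98) in wildtype and -7.57 (-13.46 to -5.68) in Eppk1-/-. Ovol2 had 30.8 CPM in the low stage and 3 UMIs in the Flg+Lor stage in wildtype, a log2 ratio of -4.69 (-7.20 to -3.33). In Eppk1-/- it had 31.7 CPM and 0 UMIs, and 3 UMIs in that Flg+Lor stage would be 1.78 CPM. Id3, an inhibitor of helix-loop-helix factors, had ratios of -4.19 and -5.12, Nfib -3.49 and -4.16, Tcf7l2 -3.46 and -4.09, Ets1 -3.33 and -3.36, and Maf -2.85 and -3.79. Klf3, Cebpb, Ppard, Jund and Foxq1 were the remaining factors called higher. Between the high and the low stage, 8 of 50 tested were higher and 9 lower, against 10.8% and 13.2% of all genes tested.

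In bulge and germ cells (665 wildtype and 364 Eppk1-/-), which hold the resting stem cells of the follicle, Trp63 had 733 and 628 CPM and Hopx, a known marker of bulge cells, 480.2 and 363 CPM. Prdm1 was at 20.2 and 16.7 CPM there, Grhl3 at 56.6 and 64.6 CPM, and Zfp750 at 83.7 and 106 CPM, all below the middle stage of keratinocytes. Gata3 (359 and 335 CPM) and Cebpa (321 and 337 CPM) lay below the low stage, which had 1146 and 774 CPM in wildtype, while Klf4 with 1998 and 1882 CPM lay above it. Within the class, the sub-cluster with fewer cells (sub-cluster 8) had more Hopx, 653 and 526 CPM, than the other (sub-cluster 5), 399 and 273 CPM.

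Upper follicle cells (571 and 398), from the part near the gland and the opening, had levels of Grhl3, Cebpa and Grhl1 between those of the middle and the high stage in both libraries. Grhl3 had 1364 and 1103 CPM, Cebpa 2003 and 1847 CPM, Grhl1 723 and 782 CPM and Zfp750 495 and 422 CPM. Klf4 reached 3688 and 3820 CPM, the highest of the classes with 30 or more cells in each library, Prdm1 294 and 348 CPM, and Trp63 remained at 426 and 422 CPM. Gata3, at 564 and 474 CPM, was below every stage except the Flg+Lor stage. An unnamed epithelial cluster led by Sostdc1 and Fst combined high Trp63 (1003 and 1078 CPM) with high Klf4 (3232 and 2961 CPM) and little Prdm1 (11.5 and 8.97 CPM), and another led by Pthlh and Lgr6 had 496 and 386 CPM of Hopx.

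Sebaceous gland cells (150 wildtype and 132 Eppk1-/-) had less of most barrier factors than keratinocytes. Their Cebpa was close to that of keratinocytes as a whole, which had 2073 CPM in wildtype and 1955 in Eppk1-/-. Cebpa stood at 1834 CPM (1763 to 1907) in wildtype and 2110 (2044 to 2177) in Eppk1-/-, and Grhl1 at 340 and 396 CPM. Grhl3 was at 17.4 and 18.4 CPM, Ovol1 at 58.6 and 63.3 CPM, Prdm1 at 29.7 and 28.7 CPM, and Klf4 at 207 and 216 CPM, the lowest Klf4 of the classes with 30 or more cells in each library. Trp63 was lower in the Eppk1-/- library (148 against 340 CPM, log2 ratio -1.20, interval -1.42 to -0.99) and Zfp750 higher (150.3 against 94.7 CPM, 0.66, 0.36 to 0.98). These sebaceous cells were deeper in Eppk1-/-, with a median of 12762 UMIs against 6140 in wildtype, and the part of depth in these ratios was not tested.

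**Figure D3:**
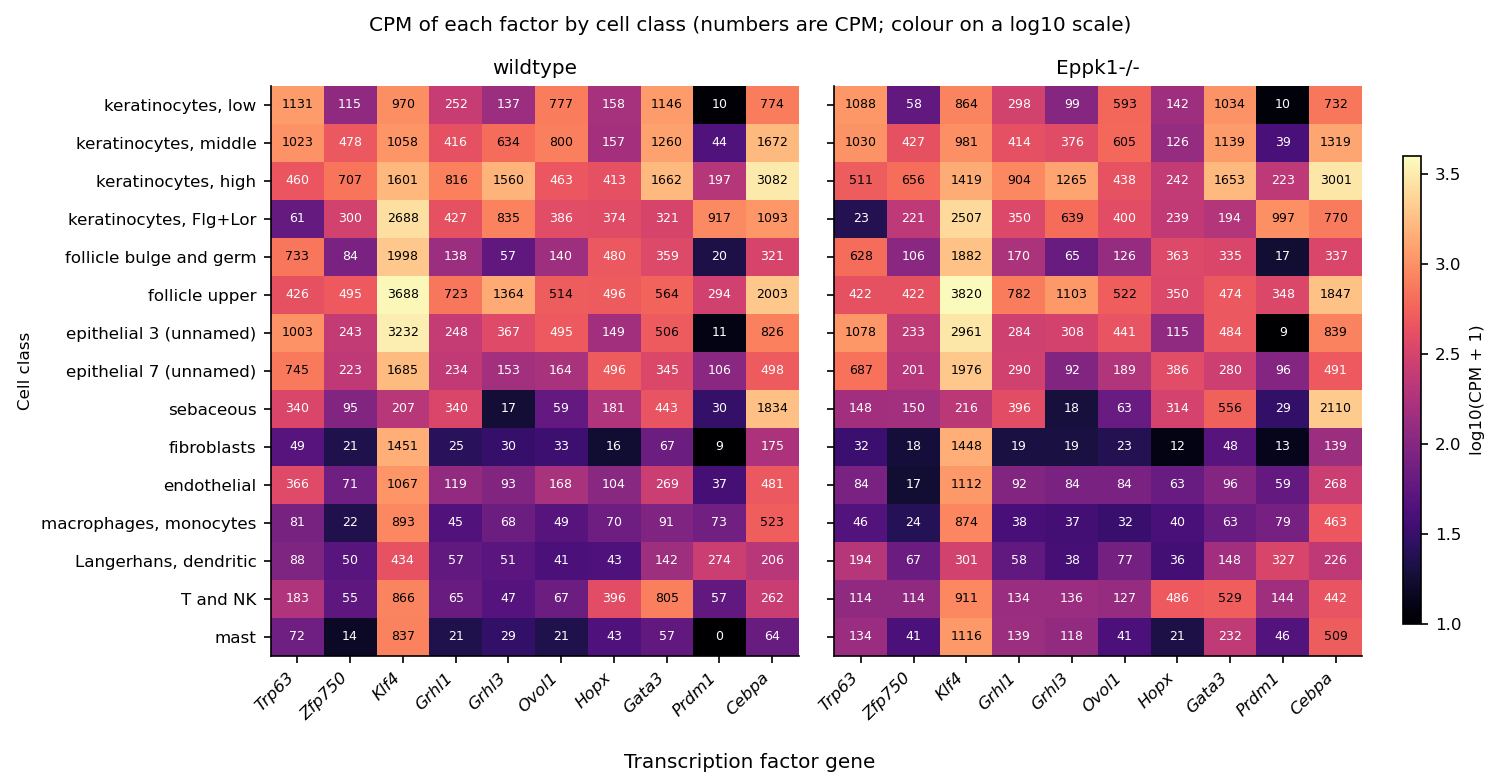
CPM of the 10 factors (columns) in 15 cell classes (rows) of the wildtype and the Eppk1-/- library, printed in each field and coloured on a log10 scale. Prdm1 was high in the Flg+Lor stage (917 CPM in wildtype), Hopx and Gata3 also in T and NK cells (396 and 805 CPM), and Klf4 ranged from 207 CPM in sebaceous cells to 3688 CPM in upper follicle cells.

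In cells outside the epithelium, small values need the level that free keratinocyte RNA would give. This level was estimated for each class from basal keratins, hemidesmosome genes, Krt1 and Krt10, as the larger of the 2 shares of the epithelial level that these gene groups gave. For Trp63 the measured and the estimated levels were nearly equal: 49.0 and 48.7 CPM in wildtype fibroblasts, 80.5 and 77.3 CPM in macrophages and monocytes, and 183 and 174 CPM in T and NK cells. Zfp750, Grhl1, Grhl3 and Ovol1 lay at or below it in these classes of the wildtype library, and levels of all 5 in these wildtype classes are read as background. In Eppk1-/- T and NK cells, where Flg and Lor made up 0.758% of UMIs, Zfp750 stood at 114 CPM (87.0 to 146) against 85.7 CPM estimated, Ovol1 at 127 against 102 CPM and Grhl1 at 134 against 126 CPM.

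The other 5 factors were well above the estimate in some class. Klf4 was high in fibroblasts, 1451 CPM (1432 to 1471) in wildtype and 1448 (1431 to 1466) in Eppk1-/-, against 144 and 101 CPM estimated, and so was close to its level in keratinocytes, which had 1489 and 1318 CPM. In macrophages and monocytes Klf4 had 893 and 874 CPM and Cebpa, which guides myeloid cells, 523 and 463 CPM against 206 and 115 CPM estimated. Prdm1 had 274 and 327 CPM in Langerhans and dendritic cells against 32.9 and 56.1 CPM estimated, with UMIs in 39.9% and 47.2% of cells thinned to 2000 UMIs, beside 5.80% and 10.4% for Trp63 in the same cells and 4.70% and 3.15% for Trp63 in thinned fibroblasts. Median depths were 4960 and 5249 UMIs in Langerhans and dendritic cells and 6979 and 6270.5 in fibroblasts.

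In T and NK cells, Gata3, which directs helper T cells and innate lymphoid cells, had 805 and 529 CPM against 274 and 225 CPM estimated, and Hopx 396 and 486 CPM against 87.5 and 48.9 CPM. Gata3 was higher in the first cluster below than in the second in both libraries. Hopx in the second was close to its level over all T and NK cells in wildtype, and above that level in Eppk1-/-. In the cluster led by Ccr8, Icos and Il2ra (112 wildtype and 181 Eppk1-/- cells), Gata3 had 1241 and 632 CPM. In the cluster led by Trdc and a gamma-delta T cell receptor gene (112 and 75 cells), Hopx had 405 and 905 CPM and Gata3 308 and 258.5 CPM. The differences between genotypes rest on 246 Gata3 UMIs in the first and 133 Hopx UMIs in the second cluster of the Eppk1-/- library, with median depths of 1726 and 1754 UMIs per cell.

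Between genotypes, 9 of the 10 factors stayed within the size rule in keratinocytes as a whole. By the size rule of 0.5 (log2), 1 of 10 factors was lower in Eppk1-/-, against 4.0% of the 10553 genes tested, and 0 were higher, against 3.53%. These ratios carry no p-value, so no count at an unadjusted threshold exists. The median log2 ratio of the 10 was -0.12, beside 0.01 for all genes tested. The log2 ratios were -0.35 for Grhl3 (interval -0.38 to -0.32), -0.23 for Ovol1, -0.18 for Klf4, -0.16 for Zfp750, -0.09 for Cebpa and -0.04 for Gata3. They were 0.02 for Prdm1 (-0.04 to 0.08), 0.05 for Trp63 and 0.12 for Grhl1.

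Hopx was the factor past the rule, with 304 CPM (297 to 311; 7400 UMIs) in wildtype and 197 CPM (191 to 204; 3393 UMIs) in Eppk1-/-, a log2 ratio of -0.62 (-0.68 to -0.56). By stage the ratio was -0.15 (-0.31 to 0.00) in the low stage, -0.32 (-0.50 to -0.14) in the middle, -0.77 (-0.84 to -0.69) in the high and -0.64 (-0.81 to -0.48) in the Flg+Lor stage. It was below 0 in 8 of 9 epithelial groups with 30 or more cells in each library (the stages, the follicle classes, the unnamed clusters 3 and 7 and the sebaceous cells), with the interval below 0 in 7. In the unnamed epithelial cluster 13, with 61 wildtype and 11 Eppk1-/- cells, it was 0.28 (-1.34 to 1.41). In bulge and germ cells it was -0.40 (-0.56 to -0.25) and in upper follicle cells -0.50 (-0.61 to -0.40). Upper follicle cells also differed in make-up, with Flg and Lor at 0.645% of UMIs in wildtype and 1.66% in Eppk1-/-. The part of this in their ratio was not tested. Of the remaining factors, Grhl3 had its interval below 0 in 7 of these 9 groups and Grhl1 above 0 in 7, at ratios from -0.75 to 0.19 for Grhl3 and from -0.28 to 0.31 for Grhl1.

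**Figure D4:**
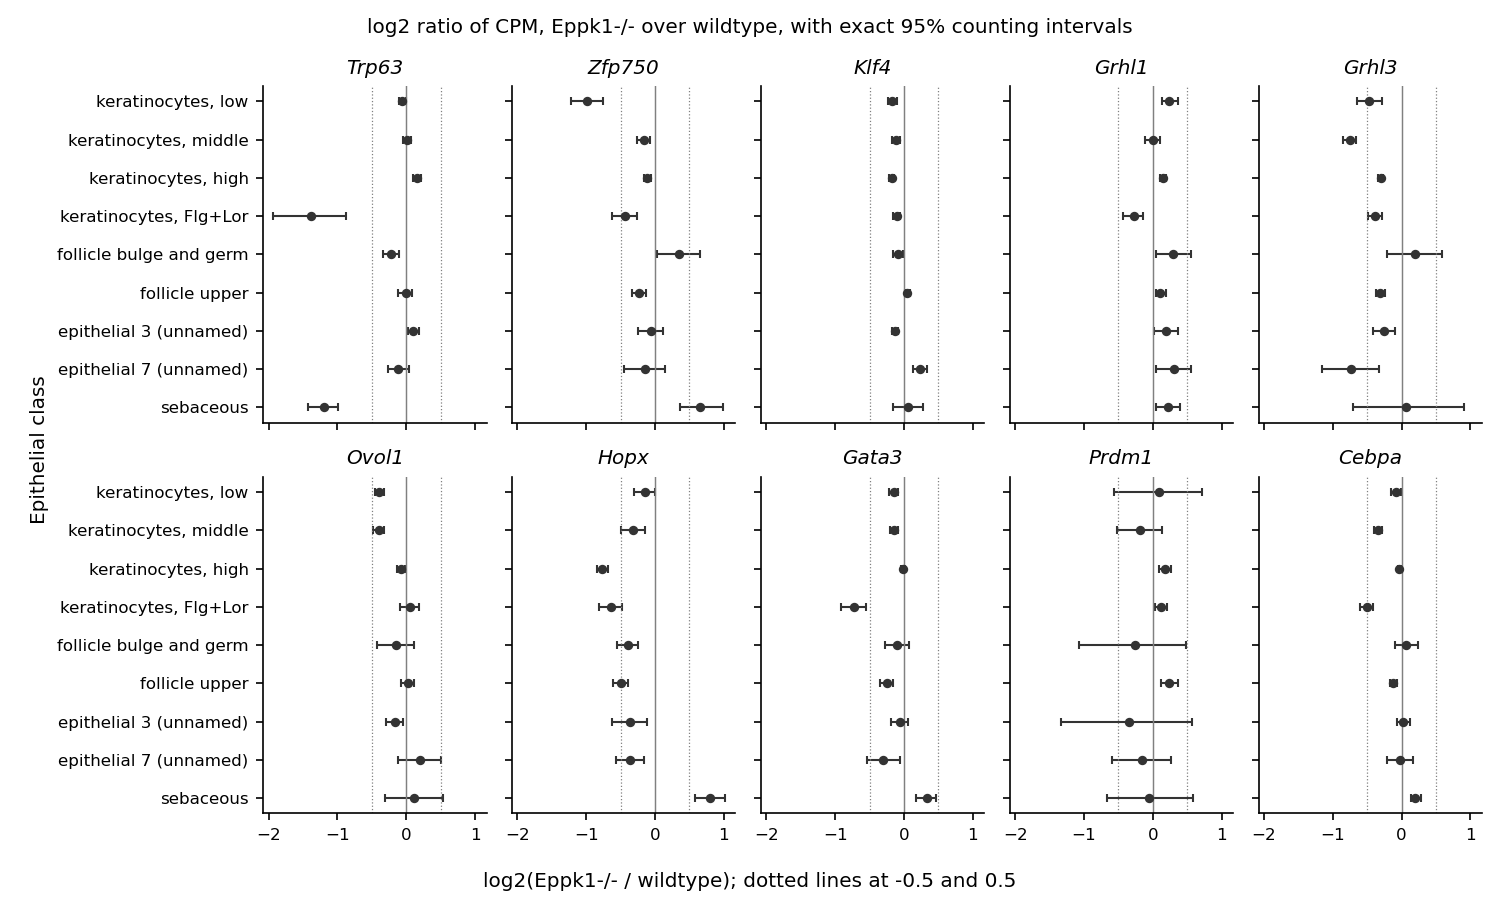
log2 ratio of CPM, Eppk1-/- over wildtype, for each factor in 9 epithelial groups, with exact 95% counting intervals and dotted lines at the size rule of -0.5 and 0.5. Hopx lies left of 0 in every group but sebaceous cells (0.80), and the wide intervals of Prdm1 in the low stage and in bulge and germ cells come from sums of 39 and 22 UMIs in Eppk1-/-.

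The level of Hopx followed 1 sub-cluster closely. Sub-cluster 6, a Krt1-rich group with a median of 23866 UMIs in wildtype and 22548 in Eppk1-/-, held 10.9% of wildtype and 7.72% of Eppk1-/- keratinocytes but 67.2% and 53.3% of their Hopx UMIs. The high stage, with the largest Hopx ratio of the stages, differed in its share of sub-cluster 6: 261 of 950 cells in wildtype and 151 of 907 in Eppk1-/-. Hopx was at 578 CPM (562 to 594) in sub-cluster 6 in wildtype and 395 (377 to 414) in Eppk1-/-, a ratio of -0.55 (-0.63 to -0.47). In the shallower Krt1-rich sub-cluster 1 the levels were 152 and 118 CPM (-0.36), and in the basal sub-clusters 0 and 2 they were 124 and 112 CPM (-0.15) and 200 and 152 CPM (-0.39). Without sub-clusters 6 and 12 the ratio over keratinocytes was -0.30, no longer past the rule. Weighting the stages of both libraries by their wildtype shares gave -0.65. Between the libraries, 25 of 26 differentiation genes not used for the stages were also below 0 in Eppk1-/-, with a median of -0.18. Of all 10553 genes tested 5007 were below 0, and of 12 basal genes 10 were above 0, with a median of 0.13. The part of cell make-up in the Hopx difference was not tested further.

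Hopx also rose with depth above 10000 UMIs, but not below. Among keratinocytes before the cell filter, those with up to 5000 UMIs had 163 CPM in wildtype and 131 in Eppk1-/-. Those with 5000 to 10000 UMIs had 154 and 134.5 CPM. Within each library these intervals overlapped those of the cells with up to 5000 UMIs, but between the libraries they did not overlap. Those with 10000 to 20000 UMIs had 290 and 189 CPM, and those with more than 45000 UMIs 560 and 429 CPM. The Eppk1-/- library was lower in each of the 5 depth bands. With all these cells included the ratio was -0.49, just short of the rule.

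**Figure D5:**
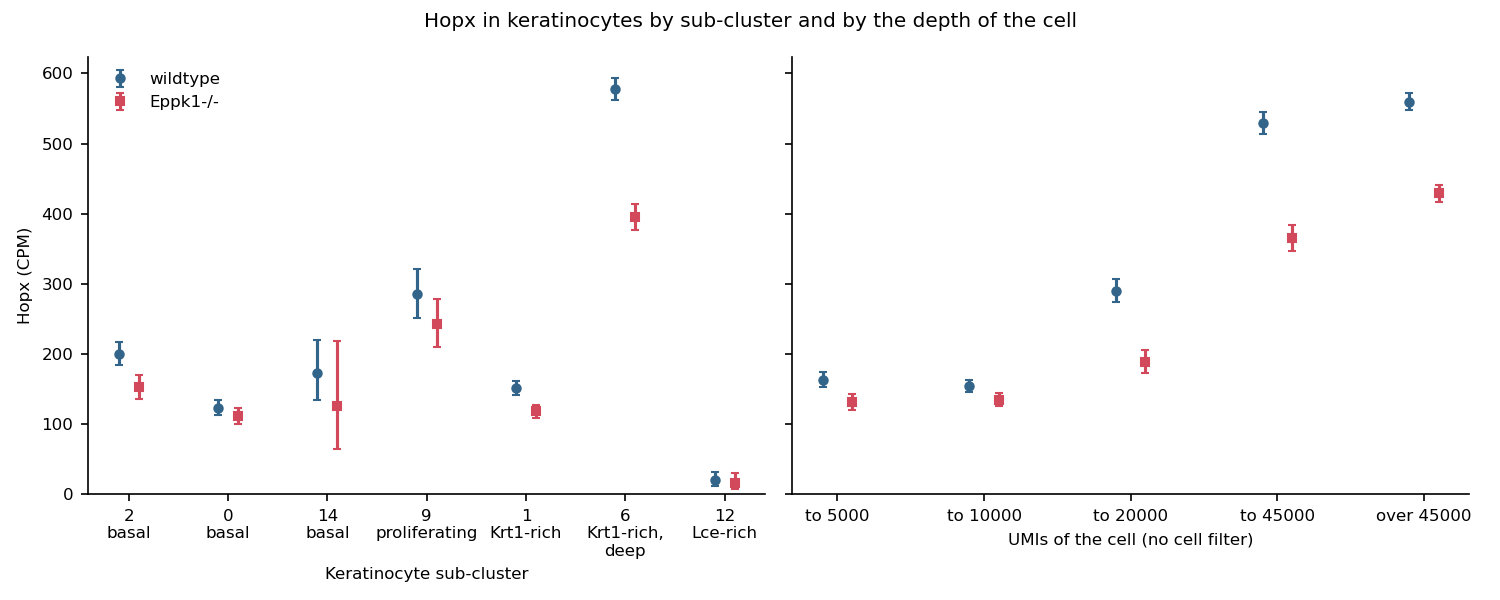
Hopx (CPM, with exact 95% counting intervals) in the 7 keratinocyte sub-clusters (left) and by the UMI total of the cell, without the cell filter (right), in the wildtype (circles) and Eppk1-/- (squares) library. Sub-cluster 6 stands out with 578 and 395 CPM, and the level rises with depth from 163 to 560 CPM in wildtype and from 131 to 429 CPM in Eppk1-/-.

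Single stages held larger ratios for factors within the rule overall. Grhl3 was lower in the Eppk1-/- middle stage (376 against 634 CPM, -0.75, interval -0.85 to -0.66). The middle stage differed in make-up, with 290 of 1066 wildtype and 143 of 791 Eppk1-/- cells in the Krt1-rich sub-cluster 1, where Grhl3 had 1547 and 1231 CPM against 236 and 177 CPM in sub-cluster 0. Within sub-clusters 0, 1 and 2 the Grhl3 ratios were -0.41, -0.33 and 0.60. Gata3 was lower in the Flg+Lor stage (194 against 321 CPM, -0.73, -0.92 to -0.55). Cebpa was lower by 0.34 in the middle and by 0.50 in the Flg+Lor stage. The Flg+Lor stage differed in make-up as well, with 69 of 141 wildtype and 30 of 83 Eppk1-/- cells at 1 to 10% Flg and Lor. In that range Gata3 had 548 and 414 CPM and Cebpa 1885 and 1742 CPM. At 10% or more they had 70.1 and 48.3 CPM and 219 and 129 CPM. The part of make-up in these ratios was not tested. Ovol1 was lower in the low and middle stages, by 0.39 and 0.40, and showed 0.05 in the Flg+Lor stage. Whether a ratio differs between stages was not tested, since each rests on 1 library per genotype.

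Among the other epidermal factors, 5 of 53 tested were lower and 2 higher between genotypes, with a median of -0.05. Of all genes tested, 4.0% were lower and 3.53% higher. Hes1, a Notch target of the spinous layer, went from 199.8 to 86.1 CPM (-1.21, interval -1.30 to -1.13), Id1 from 46.1 to 27.7 CPM (-0.73), Foxq1 from 30.7 to 21.3 CPM (-0.52), Gata6 from 5.13 to 3.20 CPM (-0.67) and Hoxc13 from 1.64 to 0.640 CPM (-1.31, -2.47 to -0.37). Tcf7l1 was at 1.64 and 3.26 CPM (0.98, 0.38 to 1.61) and Foxn1, a regulator of keratinocyte differentiation, at 22.8 and 32.3 CPM (0.50). Hoxc13 rests on 40 and 11 UMIs, Tcf7l1 on 40 and 56, and Gata6 on 125 and 55.

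Over 13 classes and stages with at least 30 cells in each library, the genes most like each factor in log2(CPM + 10) were found among 9333 genes with at least 500 UMIs in each library. The points share libraries and depth, so these correlations are descriptions. Trp63 was most like Tns4 (r = 0.970 in both libraries), Ajuba and Sdc1. Grhl3 was most like Dsg1a, a desmosomal cadherin gene (0.979 in wildtype and 0.981 in Eppk1-/-), Pla2g2f and Mall. Grhl1 was most like Erbb3, Ankrd22 and Wwc1, and Zfp750 most like Uchl3, Tmem79 and Ankrd22, so that Ankrd22 stood among the 3 of both. Ovol1 was most like Pkp1, a plakophilin gene (0.966 in both), Plet1 and Pard6b.

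Prdm1 was most like Gdpd3 (0.907 and 0.928), Nccrp1 and Rab11fip1, and the genes most like Cebpa included Parl and Pon2. Gata3 was most like Cdh1, the E-cadherin gene (0.918 and 0.904), Nrip1 and Abhd13, and those most like Hopx included Ube2b (0.939 and 0.925) and Acpp. Klf4 had the least close neighbours, Otud1 (0.913 and 0.896), Ahnak2 and Abtb2 (0.812 and 0.816). Among the factors themselves Grhl1 and Zfp750 (0.955 and 0.880) and Grhl1 and Cebpa (0.936 and 0.910) were the closest pairs.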

How the data were processed

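Cells of dorsal skin of 1 wildtype and 1 Eppk1-/- mouse were profiled with the 10x Genomics Fixed RNA Profiling kit. Per the authors' methods and the submitters' processing notes, reads were processed with Cell Ranger 8.0.1 on mm10, and the deposited matrices hold raw UMI counts per gene and cell. The libraries held 77638793 and 65118304 UMIs.

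The cell filter, after the authors' methods, removed 304 wildtype and 194 Eppk1-/- cells whose UMIs fell outside 200 to 45000, whose genes fell outside 100 to 7500 or whose mitochondrial share exceeded 10%. Cells were clustered with Seurat 5.3.0 in R 4.3.3 (normalization to 10000 UMIs, 2000 variable features without the 10 factors, the other transcription factors and Eppk1, 50 principal components, reciprocal PCA integration, Louvain resolution 0.5), and epithelial cells were clustered again. Names were given to clusters in which 3 or more markers of 1 type stood at 2 times their level elsewhere in at least 25% of cells, and where its leading genes did not go against the name. No doublets were removed from the main counts: Scrublet (scanpy 1.11.5) called 0.0% of wildtype and 2.37% of Eppk1-/- cells, so it did not work on the wildtype library.

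UMIs were summed per class and library without mitochondrial genes and scaled to CPM in Python 3.11.15 (scipy 1.17.1). Intervals are exact Poisson (CPM) and exact conditional binomial (ratios) at 95% and cover counting error only. The ratios were taken after 0.5 UMI was added to each sum, and their intervals used the counts without this addition. Genes with at least 50 UMIs were compared. The size rules were 0.5 between genotypes and 1 in both libraries between stages, on the log2 scale. No test was made, since cells are not replicates. edgeR 4.0.16 gave TMM factors as an alternative. The summation and ratio steps were tested on simulated data. Promoters are from RefSeq.

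The 10 factors and the gene lists were chosen with earlier results of these data known. The genes named are all 10 factors, up to 10 other transcription factors past each size rule by size, and the 3 genes most like each factor, some of which are not reported here. The remaining genes called higher between stages were named after their values were seen.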

Additional observations from a re-analysis of the deposited data

Results flagged for a closer look

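Hopx moved in opposite directions in sebaceous cells and keratinocytes. In sebaceous cells it stood at 181 CPM in wildtype (250 UMIs) and 314 CPM in Eppk1-/- (581 UMIs), a log2 ratio of 0.80 (interval 0.58 to 1.02), while the ratio in keratinocytes was -0.62. The difference between the classes was not tested, since there is 1 library per genotype. In cells thinned to 2000 UMIs, Hopx was detected in 9.42% of wildtype and 18.75% of Eppk1-/- sebaceous cells. The sebaceous cells of the Eppk1-/- library were deeper at the median, 12762 against 6139.5 UMIs, and the part of depth or of the stage of the gland cells was not tested.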

How the results depend on the processing

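The count of factors lower between genotypes was 1 and became 0 with no cell filter (Hopx -0.49), with the mean of per-cell CPM (-0.45) and, in an alternative chosen after seeing the data, without sub-clusters 6 and 12 (-0.30). The genes called lower in these settings were 334 of 10999, 631 of 10553 and 384 of 9962, beside 422 of 10553 in the main setting. The ratio of Hopx ranged from -0.70 to -0.30 over 14 settings, and no factor was called higher in any of them. Between the Flg+Lor and the low stage, the 4 factors called higher became 7 with TMM factors, 7 with no cell filter, 2 with follicle and sebaceous clusters counted as keratinocytes and 7 when set against the median of all genes, and the 2 called lower became 1 with no cell filter and 1 against the median. The counts of all genes moved too. Those called higher were 1008 of 7574 in the main setting and 1703 of 7574 with TMM factors. They were 1366 of 8720 with no cell filter and 823 of 9468 with follicle and sebaceous clusters counted. Those called lower were 3791 in the main setting and 2919 with no cell filter. The setting against the median and the one without the Lce-rich sub-cluster were also chosen after seeing the data. Ovol1 in wildtype reversed from -1.01 to 0.06 against the median, and in Eppk1-/-, where it had not been past the rule, went from -0.57 to 0.85 against the median, 0.51 with TMM factors and 0.05 with follicle and sebaceous clusters counted. Further ratios under the rule changed sign with the Flg+Lor limit at 5%: Hopx in Eppk1-/- from 0.75 to -0.62, Grhl1 in Eppk1-/- from 0.23 to -0.60, and Cebpa from 0.50 to -0.43 in wildtype and from 0.07 to -0.95 in Eppk1-/-. Cebpa in Eppk1-/- was also below 0 in other settings, such as -0.16 with the Krt1 and Krt10 limits at 0.5% and 5%. The cause was not tested. Of the other ratios, 101 between genotypes and 157 between stages stayed within the counting interval of the reported value, and 39 and 162 moved beyond it. Over all genes, no filter on low counts gave 1909 lower and 2089 higher of 14828 between genotypes and 1713 higher between stages, thinning gave 245 and 533 higher, and centring on the median gave 2025 higher and 1857 lower between stages, in place of the counts in the report. No paired analysis was possible because each genotype has 1 library. Leaving out a replicate was not possible for the same reason. The spread between mice is unknown, and genes with few UMIs, such as Prdm1 in immature cells, are limited by depth.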

Other observations

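Within T and NK cells the Hopx and Gata3 differences between the libraries ran in different clusters. The log2 ratio of Hopx, Eppk1-/- over wildtype, was 1.16 (0.77 to 1.55) in the Trdc cluster and -0.24 (-0.63 to 0.14) in the Ccr8 cluster. The ratio of Gata3 was -0.97 (-1.22 to -0.73) in the Ccr8 cluster and -0.24 (-0.86 to 0.33) in the Trdc cluster. In the Eppk1-/- Ccr8 cluster Flg and Lor made up 1.03% of UMIs, against 0.028% in wildtype, and the part of such carried RNA in these ratios was not tested.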
